A study of Rattus norvegicus with 18 samples.

Results

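A stretch of rat chromosome 10 around Trim16 was described in 2 rat strains, WHP, selected for a high preference for ethanol, and WLP, selected for a low one. Its members were all non-control probes of a two-colour Agilent array with coordinates between 40 and 55 Mb on the rn4 build. There were 322 such probes, and merging probes that overlap on 1 strand left 321 regions of the array's 40793. Of these, 164 lay between 45 and 50 Mb, called the core here, 100 in the proximal flank (40 to 45 Mb) and 57 in the distal flank (50 to 55 Mb). The stretch was chosen on the ratio of WHP to WLP signal in these same arrays, so its strain ratios are given as a description.

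All rats were male and had never received alcohol. RNA was taken from 3 brain areas: hippocampus, nucleus accumbens and prefrontal medial cortex. Each array carried a pool of equal RNA from 3 WHP rats in 1 dye and a pool from 3 WLP rats in the other, and a second array repeated the pair with the dyes exchanged. The 18 arrays thus formed 9 pool pairs, 3 per area. Pooling leaves the spread between single rats unmeasured, and whether 1 set of rats supplied all areas is not given in the labels. Accumbens and prefrontal pairs of the same number shared a slide, and hippocampus pairs lay on slides of their own.

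The middle of the stretch holds genes known from 2 human conditions, the Smith-Magenis interval around Rai1 and the interval around the peripheral myelin gene Pmp22 that is duplicated in a form of Charcot-Marie-Tooth neuropathy. Trim16 belongs to the tripartite-motif family, many members of which attach ubiquitin to other proteins, and it takes part in the autophagic removal of damaged membranes. Strains bred apart carry different alleles at many loci, and neighbouring loci are inherited together.

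The probes shown here are those of Trim16 and Tvp23b, some of those of Ncor1, and the unnamed probes that passed the strain test described below. Each probe has 60 bases, and bases 16 to 45 are printed, 5′ to 3′ in the probe's own orientation, in lower case throughout. No rn4 gene models were used here, so exon, intron and UTR are not stated. The Trim16 probes map to the plus strand at chr10:49007411-49007470 and chr10:49009398-49009457. The Tvp23b probes, also on the plus strand, map to chr10:49069243-49069301 and chr10:49071981-49072314, and the second spans 334 bases of genome. The Ncor1 probes shown, on the minus strand, map to chr10:48480897-48480956, chr10:48483191-48483250 and chr10:48483311-48484921. The other probes have no gene name here: A_44_P792195 (chr10:45458642-45458701, minus), A_43_P19939 (chr10:47064669-47064728, minus), A_44_P711001 (chr10:47572118-47572177, plus), A_44_P792384 (chr10:48479593-48479652, minus) and A_44_P451717 (chr10:51493266-51493325, plus).
A_44_P251031 (Trim16): gtgtagaatatgatgccatgactctgattc
A_44_P839289 (Trim16): aagaatactcttcaaaagacaaaataattt
A_44_P335247 (Tvp23b): aagtcaactcctcaagacaacaaaaccatt
A_44_P148347 (Tvp23b): gtaagttttgattcagtgataagggtcaac
A_44_P713311 (Ncor1): gttatagttcagttttaaagtttaaaggct
A_44_P1016217 (Ncor1): gtgattaccacaggcagacaccaggatggg
A_44_P1016222 (Ncor1): gagtgtgcaaaccaaagctgatcaacaaat
A_44_P792195: gtaaagagtaaaaagctgtgaaaaataaac
A_43_P19939: acccactgctgagacaaagatattctagtt
A_44_P711001: gatcagcagaccggttagggatgacaaggg
A_44_P792384: atctgtaacacatgcacatacaactaaatc
A_44_P451717: taaagagcattcgtgggtctccttactgtg

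Strain differences are given per pool pair as the log2 of WHP signal divided by WLP signal, the mean of its 2 dye-swapped arrays, so a negative value means less signal from the WHP pool. A region counted as detected in an area where at least 1 strain's channel was well above background on at least 4 of 6 arrays. On that rule 222 regions were detected in all 3 areas, 131 of 164 in the core and 91 of 157 in the flanks, and 42 regions, 14 in each of the 3 zones, were detected in none. The other 57 were detected in 1 or 2 areas. Regions "called" are those with an adjusted p under 0.05 in limma's fit over the whole array. Median spot signals were 78.2 to 209 in green and 133 to 303 in red, and precision is limited by how many pool pairs there were. In tissue RNA, fewer cells of a type and less RNA per cell cannot be told apart.

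Arrays differed in how well they repeated. Over the 222 regions, the dye-swapped arrays of a pair correlated at 0.56 to 0.71 in 5 pairs. They correlated at 0.24 in prefrontal pair 1, 0.22 in hippocampus pair 3, 0.040 in accumbens pair 3 and -0.15 in hippocampus pair 2. Arrays labelled prefrontal medial cortex carried cortex markers (a log2 level of 2.04 over the array median, against 0.23 in the accumbens and 2.26 in the hippocampus) and, at 2.85 against 2.96 in the accumbens and 1.13 in the hippocampus, striatum markers too. Hippocampus markers stood at 1.73 in the hippocampus and at 0.88 and 0.95 in the accumbens and the prefrontal arrays.

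With bounds set at 45 and 50 Mb, the core differed more between the strains than its flanks did. In the core 12 of 131 regions were called in the mean of the 3 areas, 5 higher and 7 lower in WHP, and in the flanks 1 of 91, against 2.78% of the 28221 regions tested on the array. These shares are 9.16% and 1.1%, and since the stretch was selected on this contrast nothing is read from them. An unadjusted p under 0.05 was reached by 49 regions of the stretch, 22.1% against 17.8% over the array. Without single pool pairs the count of 13 called regions fell to 5 (prefrontal pair 3), 6 (hippocampus pair 1), 6 (hippocampus pair 3) and 8 (prefrontal pair 2). The array's called share in these omissions was 1.07%, 1.15%, 1.2% and 1.69%. The other 5 omissions left 11 to 16, with an array share of 1.38% to 5.41%. In the core 13 regions had 1 sign in 9 of 9 pool pairs and in the flanks 1, against 3.42% over the array. The median absolute mean ratio was 0.061 in the core, 0.035 in the flanks and 0.044 over the array. That gap depended on the bounds: with a core of 44 to 51 Mb the medians were 0.047 and 0.043 in core and flanks. With a core of 46 to 49 Mb they were 0.061 and 0.037. A mean ratio beyond 0.25 in either direction was found for 14 regions, all in the core, against 3.65% of the array. Of these, Usp22 and 1 Rnf112 probe passed it through 1 spot each on an array with an outlying local background there, and fell inside it once those backgrounds were replaced.

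**Figure D1:**
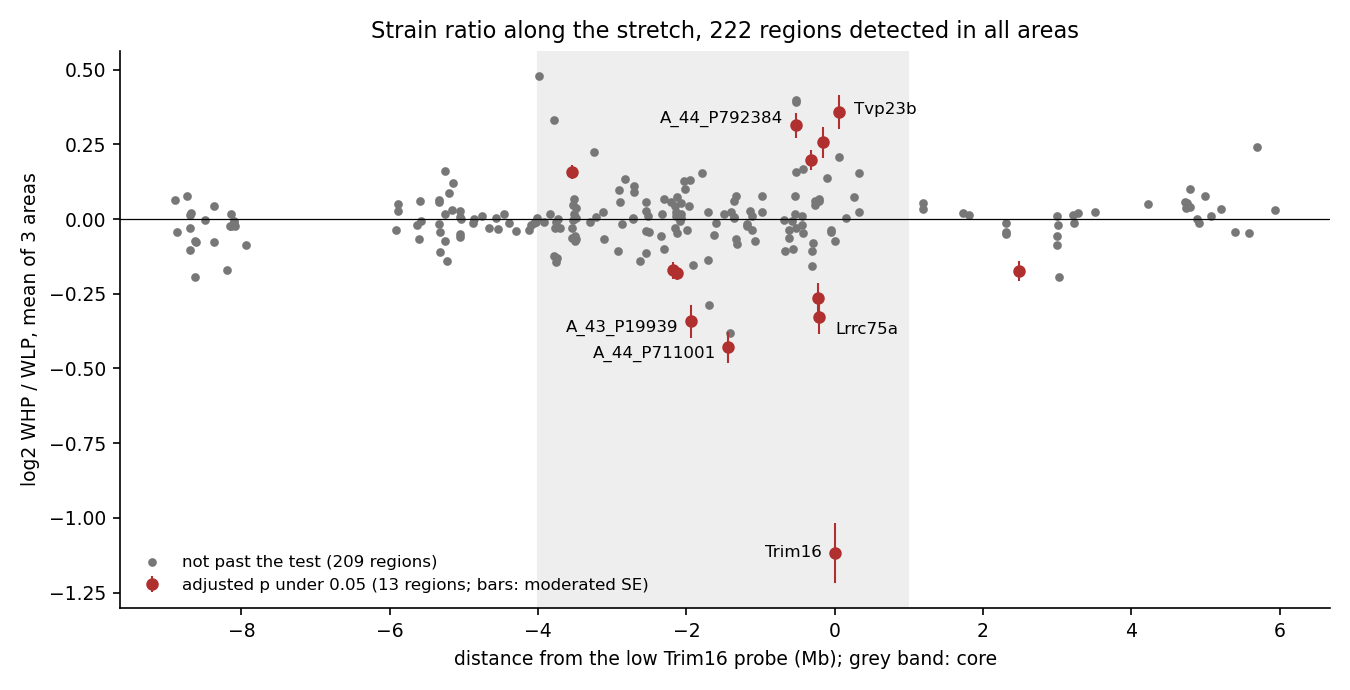
Mean log2 WHP over WLP ratio of the 3 areas (vertical axis) for the 222 regions detected in all areas, against the distance in Mb from the low Trim16 probe (horizontal axis); red points are the 13 called regions with moderated SE bars and the grey band is the core. The Trim16 probe stands alone at -1.12, and all but 1 of the red points lie in the core.

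The difference was uneven along the core. Between 45 and 46 Mb 1 of 28 regions was called, between 46 and 47 Mb 2 of 35 and between 47 and 48 Mb 2 of 27. Between 48 and 49 Mb 5 of 33 were called and between 49 and 50 Mb 2 of 8, against 2.78% of the array. The median absolute ratio in these 5 steps was 0.042, 0.055, 0.052, 0.077 and 0.11, against 0.044 over the array. The stretch was chosen on this ratio, so nothing is read from the order of the steps. Called regions of both directions were interleaved: within the last 2 steps 3 were lower and 4 higher in WHP. From the first to the last called region the core spanned 3.61 Mb, with 8 called regions on the plus and 4 on the minus strand. Past the core detected regions were sparse, with 4 between 50 and 51 Mb.

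Each area showed the same order of core and flanks at the main bounds of the core. The areas and pool pairs hold the ratios on which the stretch was chosen, so nothing is read from this order. Other core bounds were not tried by area or by pool pair. In the nucleus accumbens the median absolute ratio was 0.087 in the core, 0.055 in the proximal and 0.072 in the distal flank. The prefrontal medial cortex gave 0.077, 0.038 and 0.043, and the hippocampus 0.056, 0.036 and 0.049. Over the array the medians were 0.072 in the accumbens, 0.056 in the prefrontal medial cortex and 0.043 in the hippocampus. The distal flank thus stood level with the array in the accumbens, below it in the prefrontal medial cortex and above it in the hippocampus. Counted by pool pair, the core's median exceeded that of the flanks in 8 of 9. The exception was hippocampus pair 2, at 0.057 in the core and 0.066 in the flanks, which is also the pair whose 2 arrays correlated at -0.15. Detected core regions had a median log2 signal of 8.82 and detected flank regions one of 8.10. Its part in the difference was not tested.

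**Figure D2:**
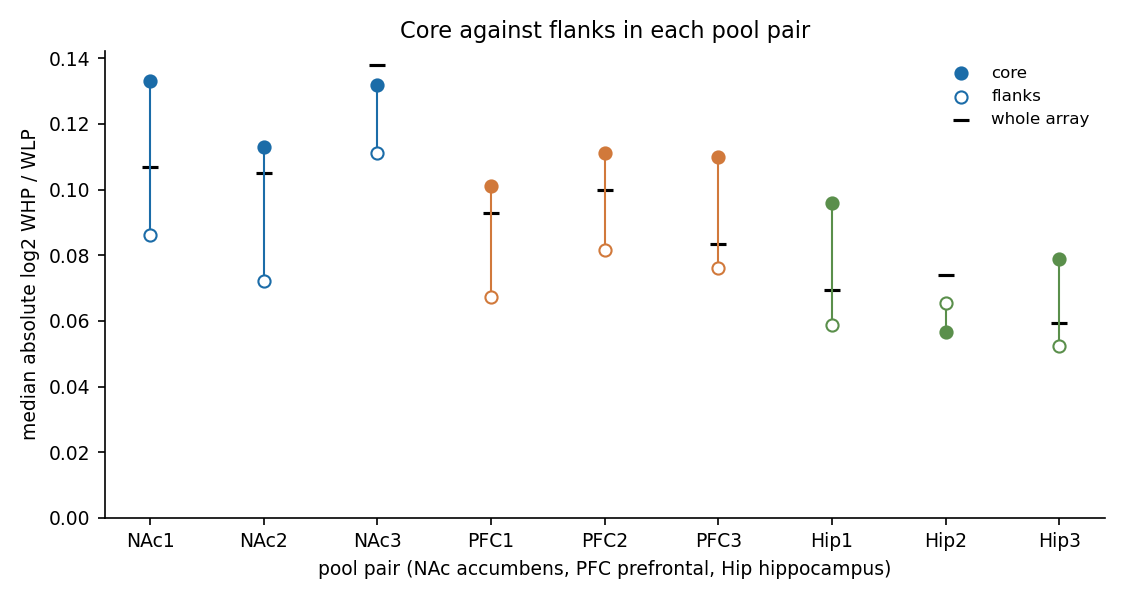
Median absolute log2 WHP over WLP ratio (vertical axis, from 0) in the core (filled), the flanks (open) and the whole array (dash) for each of the 9 pool pairs (horizontal axis). The filled point is the higher one in 8 of 9 pairs and the lower one in hippocampus pair 2.

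By single areas few members were called. In the nucleus accumbens 1 of 237 was, against 0.226% of the array, and it was the Trim16 probe A_44_P251031. That call was lost without accumbens pair 2 or 3, prefrontal pair 2 or any hippocampus pair, each leaving 0, and without accumbens pair 1 there were 2, with Mief2 added. In the prefrontal medial cortex 0 of 226 were called, against 0.077% of the array, and in the hippocampus 0 of 277, against 0.249%. The lowest adjusted p in limma's test were 0.12 and 0.064 in these areas. An unadjusted p under 0.05 was reached by 40 regions in the accumbens (16.9%, array 16.3%), 24 in the prefrontal medial cortex (10.6%, array 8.42%) and 28 of 277 in the hippocampus (array 6.67%). Without the prefrontal pair 1 array that had WHP in Cy3, a choice made after seeing the data, 3 regions were called in the prefrontal medial cortex: the same Trim16 probe, the Tvp23b probe A_44_P148347 and A_44_P711001. The Trim16 probe was then also the 1 call in the hippocampus. Without accumbens pair 3 the 1 hippocampus call was Trpv2.

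Trim16 had the lowest ratio of the stretch. For probe A_44_P251031 the 3 accumbens pairs stood at -1.70, -1.30 and -0.88, the prefrontal pairs at -0.69, -0.86 and -1.38, and the hippocampus pairs at -1.37, -0.85 and -1.02. All 9 pairs and all 18 arrays were negative, and the 3 areas overlapped. In prefrontal pair 1 the array with WHP in Cy3 read -0.157 and its dye swap -1.23. In hippocampus pair 3 the array with WHP in Cy5 read -0.528 and its dye swap -1.51, so these pair values average unlike arrays. The mean was -1.12 ± 0.10 (moderated SE, n = 9 pool pairs), a 2.17-fold lower signal in WHP. In the accumbens the mean log2 signal was 6.91 for WHP and 8.21 for WLP, in the prefrontal medial cortex 6.92 and 7.90, and in the hippocampus 6.77 and 7.85. The mean was -1.40 with no background subtraction, -1.82 in the deposited value table and -2.53 with the scanner's own processed signals, so its size depended on the processing. WHP signal was well above background on 5 of 6 accumbens arrays and on all arrays of the other areas.

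The second Trim16 probe, 1987 bases further along, did not share this difference. A_44_P839289 stood at -0.48, 0.099 and 0.29 in the accumbens pairs, at -0.18, 0.058 and -0.11 in the prefrontal pairs and at -0.30, 0.14 and -0.17 in the hippocampus pairs. Its signs were mixed, 4 positive and 5 negative, and its mean was -0.073 ± 0.079. Both probes were well above background in the WLP channel of every array.

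**Figure D3:**
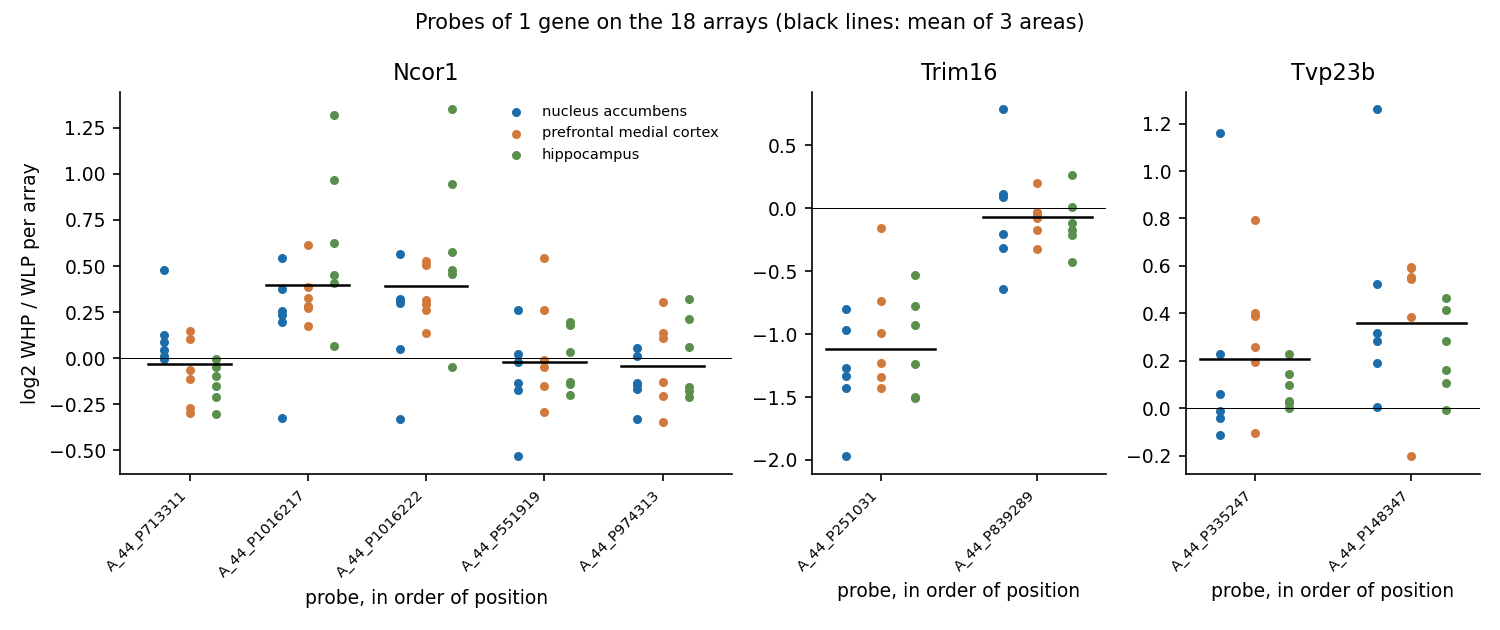
Log2 WHP over WLP ratio of each probe of Ncor1, Trim16 and Tvp23b on each of the 18 arrays (points, coloured by area), with the mean of the 3 areas as a black line and probes in order of position. The first Trim16 probe is below 0 on every array and the second straddles 0, while 2 neighbouring Ncor1 probes stand above the other 3.

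Tvp23b, a membrane protein of Golgi vesicles and the next detected gene after Trim16, was higher in WHP. Probe A_44_P148347 gave 0.24, 0.42 and 0.63 in the accumbens, 0.17, 0.57 and 0.49 in the prefrontal medial cortex and 0.35, 0.051 and 0.31 in the hippocampus, with a mean of 0.36 ± 0.06. Its call was lost without prefrontal pair 3, hippocampus pair 1 or hippocampus pair 3. The gene's other probe, A_44_P335247, was also positive in 9 of 9 pairs, from 0.024 to 0.60, with a mean of 0.21 ± 0.07, and was not called. Both probes thus pointed the same way.

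Ncor1, a corepressor of nuclear receptors, was measured by 5 probes. Neighbouring ones, A_44_P1016217 and A_44_P1016222, stood at 0.40 ± 0.09 and 0.39 ± 0.09, positive in 8 of 9 pairs each and not called. Without hippocampus pair 2 both were called, at adjusted p of 0.0466 and 0.0475 in limma's test. By pair the former gave 0.46, 0.23 and -0.046 in the accumbens, 0.50, 0.22 and 0.31 in the prefrontal medial cortex and 1.14, 0.24 and 0.54 in the hippocampus. The latter followed it pair by pair, from -0.008 in accumbens pair 3 to 1.15 in hippocampus pair 1. The other 3 Ncor1 probes had means between -0.045 and -0.019. The unnamed probe A_44_P792384 lies on the same strand 1245 bases from the nearest Ncor1 probe. Its pairs stood at 0.40, 0.37 and 0.31, at 0.53, 0.16 and 0.38 and at 0.35, 0.077 and 0.26, positive in 9 of 9, with a mean of 0.31 ± 0.04. A probe of the opposite strand that overlaps it, A_44_P572504, had a mean of 0.16 ± 0.05, not called.

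Across the stretch 24 genes had more than 1 region detected in all areas, 15 in the core and 9 in the flanks. The means of 1 gene's regions differed by a median of 0.053, by under 0.1 in 17 genes and by over 0.25 in 3: Trim16 (1.04), Ncor1 (0.44) and Rnf112 (0.41). For Rnf112, a RING finger protein of brain, 1 spot set that gap. Its probe A_42_P758200 read -5.21 on the prefrontal pair 1 array with WHP in Cy3, where the scanner's local green background was 26573 against an array median of 31. Usp22, a deubiquitinase of the SAGA complex, read -5.38 on the same array with a local green background of 33195. With outlying local backgrounds replaced by the array's median, a choice made after seeing the data, the means were -0.074 for that Rnf112 probe and 0.017 for Usp22.

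Both called genes of the Smith-Magenis interval were lower in WHP. Mief2, an adaptor for mitochondrial fission, gave -0.13, -0.30 and -0.19 in the accumbens, -0.17, -0.20 and -0.27 in the prefrontal medial cortex and -0.14, -0.12 and -0.12 in the hippocampus, with a mean of -0.18 ± 0.02. Alkbh5, which removes methyl groups from adenosine in RNA, was negative in 9 of 9 pairs, from -0.32 to -0.089, with a mean of -0.17 ± 0.03. The Alkbh5 call was lost without prefrontal pair 3, hippocampus pair 1 or hippocampus pair 3. An antisense probe that overlaps Mief2's stood at -0.047. Of the interval's 41 listed genes, 36 were on the array with 42 regions, and 38 regions were detected in all areas. Their median ratio was 0.0022 against 0.00011 over the array, 0 were called higher and 2 lower. Over the array 2.78% of tested regions were called, 366 higher and 418 lower, and nothing is read from the direction of 2 calls. Nt5m, a mitochondrial nucleotidase of the same list, was positive in 9 of 9 pairs, from 0.032 to 0.33, and was called only without accumbens pair 2 among the 25 other settings.

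Between Ncor1 and Trim16 lay 4 called genes. Pigl, an enzyme of GPI anchor synthesis, was positive in 9 of 9 pairs, from 0.019 to 0.36, with a mean of 0.20 ± 0.035. Mmgt2, of a family of membrane magnesium transporters, gave 0.14, 0.39 and 0.32 in the accumbens, -0.094, 0.34 and 0.21 in the prefrontal medial cortex and 0.51, 0.25 and 0.26 in the hippocampus, a mean of 0.26 ± 0.05. Lrrc75a, a leucine-rich repeat protein, was negative in 9 of 9 pairs, from -0.59 to -0.10, with a mean of -0.33 ± 0.06. Trpv2, a cation channel, stood at -0.41, -0.23 and 0.10, at -0.026, -0.14 and -0.29 and at -0.51, -0.39 and -0.49, a mean of -0.27 ± 0.05. All 4 lost the call without prefrontal pair 2, prefrontal pair 3, hippocampus pair 1 or hippocampus pair 3. Pigl and Mmgt2 also lost it without accumbens pair 3, and Mmgt2 and Trpv2 without accumbens pair 2 or hippocampus pair 2. Over 25 other settings Pigl was called in 18, Mmgt2 in 14, Lrrc75a in 19 and Trpv2 in 15. Among the 25 is a scaling that leaves ratios unchanged and so repeats the main calls. Of the listed genes from Ttc19 to the Pmp22 interval, 29 regions were detected in all areas, with a median ratio of -0.012. Called among them were 2 higher (Tvp23b and Pigl) and 2 lower (Lrrc75a and Trpv2), where 2.78% of the array's tested regions were called.

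**Figure D4:**
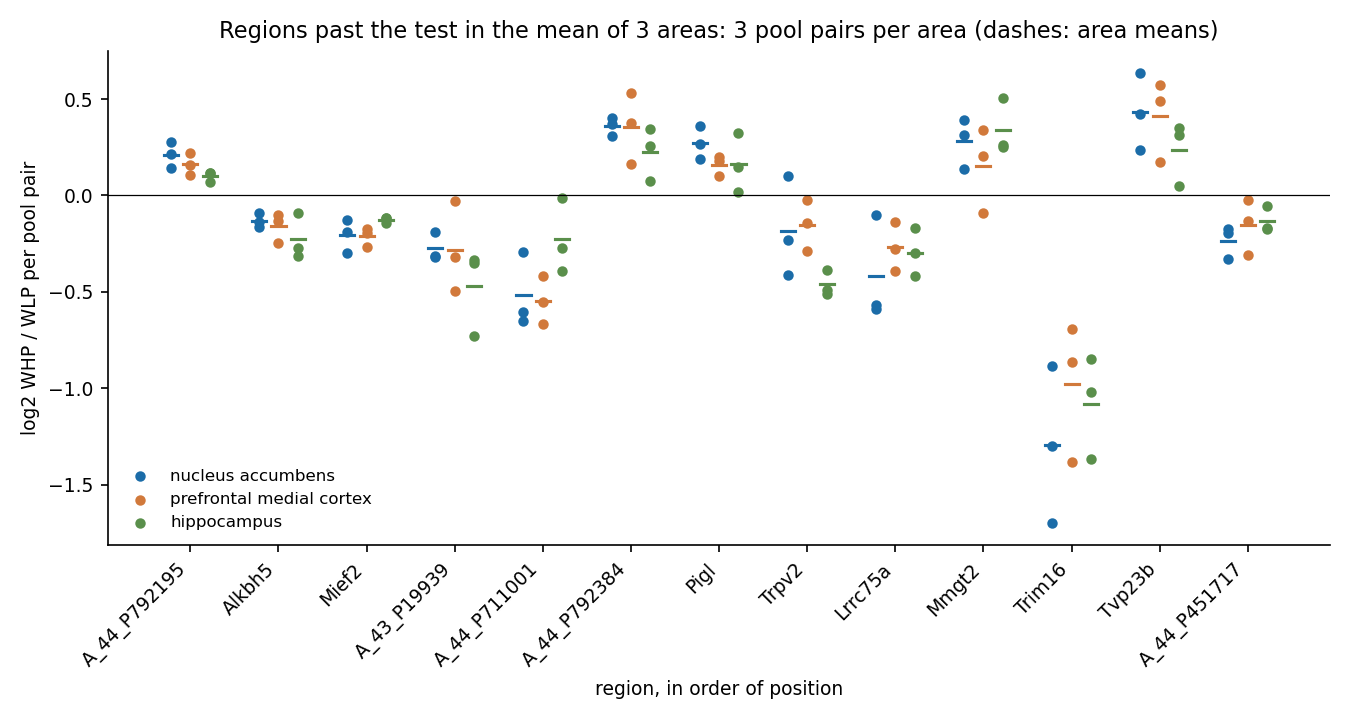
Log2 WHP over WLP ratio of each pool pair (points, 3 per area, dashes for area means) for the 13 called regions in order of position. Of these, 11 have 1 sign in all 9 pool pairs, and Trim16 lies lowest, from -1.70 to -0.69.

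Of the called regions 5 had no gene name. A_44_P711001, in the core, was negative in 9 of 9 pairs, at -0.65, -0.61 and -0.30, at -0.42, -0.55 and -0.67 and at -0.39, -0.013 and -0.27, with a mean of -0.43 ± 0.05. The nearest named region of its strand, Mfap4, lay 76089 bases away and stood at 0.061. A_43_P19939 was also negative throughout, from -0.73 to -0.031, with a mean of -0.34 ± 0.06, while Natd1, 13391 bases away, stood at 0.13. Its call was lost without prefrontal pair 2 or 3. A_44_P792195, 1264 bases from an Iba57 probe that stood at -0.062, was positive in 9 of 9 pairs with a mean of 0.16 ± 0.02. A_44_P451717 was the 1 called region of the flanks, negative in 9 of 9 pairs with a mean of -0.17 ± 0.03, and kept its call in 14 of 25 other settings, losing it in each omission of a pool pair but accumbens pair 1 and prefrontal pair 1. Without Trim16's low probe, the called regions differed between strains by 1.12-fold to 1.35-fold. Beside Nt5m and Tvp23b's A_44_P335247, 1 more region of 1 sign in 9 of 9 pairs was not called, A_44_P179114 at -0.11 ± 0.03.

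Some further genes were not called. Rnf187, a RING finger ubiquitin ligase, was positive in 8 of 9 pairs, at 0.77, 0.41 and 0.11, at 0.55, -0.14 and 0.60 and at 0.089, 0.34 and 0.27, with a mean of 0.33 ± 0.09. Trim17, a tripartite-motif protein, was negative in 8 of 9 pairs with a mean of -0.13 ± 0.03, and its neighbour Trim11 stood at 0.0012. Kcnj12, an inward rectifier potassium channel, ranged from -0.23 to 0.80 over the pairs with a mean of 0.15 ± 0.10.

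The remaining lists of genes in the stretch had no called member beyond those named, and over the array 2.78% of tested regions were called. Of the TRIM and butyrophilin genes 4 regions were detected in all areas, Trim16's low probe was called, and Trim17, Trim11 and the second Trim16 probe were not. The skeletal myosin neighbourhood (13 regions), the Wnt and Arf1 neighbourhood (10) and the olfactory receptors (15 of 35 regions) had 0 called, with median ratios of 0.030, -0.019 and -0.013. Mitochondrial genes (14 regions) had Mief2 as their 1 called member and a median ratio of -0.032, and synaptic and membrane signalling genes (15) had Trpv2 and -0.0088.

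At both ends of the core large ratios had mixed signs, and markers of other cell types are given beside them. Cfap144, a protein of motile cilia and the first detected region of the core, stood at 1.25, -0.89 and 0.21 in the accumbens, -0.38, 1.44 and 0.47 in the prefrontal medial cortex and 1.22, 0.31 and 0.68 in the hippocampus. The median ratio of 6 choroid plexus and ependyma markers in the same pairs was 0.32, -0.34 and -0.21, then -0.067, 1.94 and -0.088, then 1.67, 0.12 and 0.55. Pmp22, the last detected region of the core, stood at -0.064, 0.79 and -0.078, at -0.64, 0.31 and 0.51 and at 0.22, 0.11 and 0.25. The 6 oligodendrocyte markers stood at -0.47, 0.40 and -0.30, at -0.87, 0.48 and 0.44 and at 0.44, 0.60 and 0.23. Neither gene was called, and the part of the marker genes in their ratios was not tested.

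At the bounds of the stretch and the core, the ratios were small on most sides. At 40 Mb the last detected region outside ranged from -0.068 to 0.24 over the 9 pairs and Cdc42se2, the first inside, from -0.053 to 0.31. At 45 Mb the olfactory receptor Or2t45, the last of the flank, ranged from -0.061 to 0.091 and Cfap144 from -0.89 to 1.44. At 50 Mb Pmp22 ranged from -0.64 to 0.79 and the next detected region, A_44_P270464, from -0.054 to 0.17. A_44_P270464 was detected in 1 area only, and the other regions at the bounds in all 3. At 55 Mb Stx8, the last detected inside, ranged from -0.094 to 0.17 and the first outside from -0.37 to 0.078.

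Whether the strain ratio itself differed between areas was a comparison that the choice of the stretch did not use. In limma's test 0 of 223 regions passed between the accumbens and the prefrontal medial cortex, 0 of 235 between the accumbens and the hippocampus and 0 of 225 between the prefrontal medial cortex and the hippocampus. These are 0% in each comparison, as over the whole array, and 9, 11 and 6 regions of the stretch had an unadjusted p under 0.05 (4.04%, 4.68% and 2.67%, against 3.34%, 8.64% and 3.58% of the array). For Trim16's low probe the differences were -0.32 ± 0.24, -0.21 ± 0.24 and 0.10 ± 0.24 (moderated SE). The smallest unadjusted p belonged to Gemin5, a component of the SMN complex, whose probe A_44_P272404 had accumbens pairs at 0.066, 0.065 and 0.081, prefrontal pairs at -0.11, -0.15 and -0.14 and hippocampus pairs at -0.18, -0.16 and -0.11. Its 3 accumbens values did not overlap the others, and the difference to the prefrontal medial cortex was 0.21 ± 0.05 with an adjusted p of 1. A second Gemin5 probe stood at -0.091, -0.045 and -0.36 in the accumbens and from -0.19 to 0.011 in the prefrontal medial cortex, and so overlapped.

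Other regions singled out by their unadjusted p were Ttc19, Srebf1, H3f4 and 4 unnamed ones. The strain ratio of Ttc19, an assembly factor of respiratory complex III, differed by -0.21 ± 0.07 between the accumbens and the prefrontal medial cortex. Both probes of Srebf1, the regulator of lipid synthesis, had a lower strain ratio in the prefrontal medial cortex than in the hippocampus. The differences of these ratios were -0.34 ± 0.11 and -0.36 ± 0.10. For H3f4, a histone gene, the strain ratio differed by -0.18 ± 0.07 between the accumbens and the hippocampus. None passed after adjustment, where the lowest p in the 3 comparisons was 1, 0.576 and 0.997.

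Signal level, the mean log2 signal of both strains, is a second readout that did not enter the choice. Between the nucleus accumbens and the prefrontal medial cortex 94 of 240 regions passed limma's test, or 39.2%, against 42.5% of the array, 43 of them higher and 51 lower in the accumbens. The core (54 of 135, 40%) and the flanks (40 of 105, 38.1%) had shares on either side of the stretch's own. These counts rest on quantile scaling: with each array only centred on its median, 1 region of the stretch passed and 0.756% of the array. That region is not among those whose levels are named below. Of the 13 regions called for strain, 2 passed the level test, A_44_P792384 and Trpv2, both lower in the accumbens. Hippocampus arrays were scanned in a session of their own, so its levels and the session cannot be told apart.

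Large level differences lay in all 3 zones. Cfap144 was 1.54 ± 0.24 higher in the accumbens (10.12 to 11.01 against 8.62 to 9.07). Choroid plexus and ependyma markers averaged 1.01 in the accumbens and 0.83 in the prefrontal medial cortex. By array these markers ranged from 0.92 to 1.16 in the accumbens and from 0.016 to 2.3 in the prefrontal medial cortex. Gpx3, a secreted glutathione peroxidase, was higher by 0.73 ± 0.14 and the unnamed A_44_P552072 by 0.72 ± 0.08.

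Lower in the accumbens were Gas7, a protein linked to neurite outgrowth (-1.05 ± 0.11), and Cdc42se2, an effector of the GTPase Cdc42 (-0.77 ± 0.15). For Gas7 the accumbens pairs ranged from 10.82 to 11.26 and the prefrontal pairs from 11.99 to 12.17, again without overlap. The skeletal myosin genes Myh2 (-0.85 ± 0.10) and Myh3 (-0.74 ± 0.10) were lower too, as was the unnamed A_44_P774038 (-0.80 ± 0.06). Muscle markers (3 measured genes) lay below the array median in both areas, at -0.52 and -0.45. Trim16 differed by 0.15 ± 0.13 and 0.18 ± 0.07 at its 2 probes, neither past the test.

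**Figure D5:**
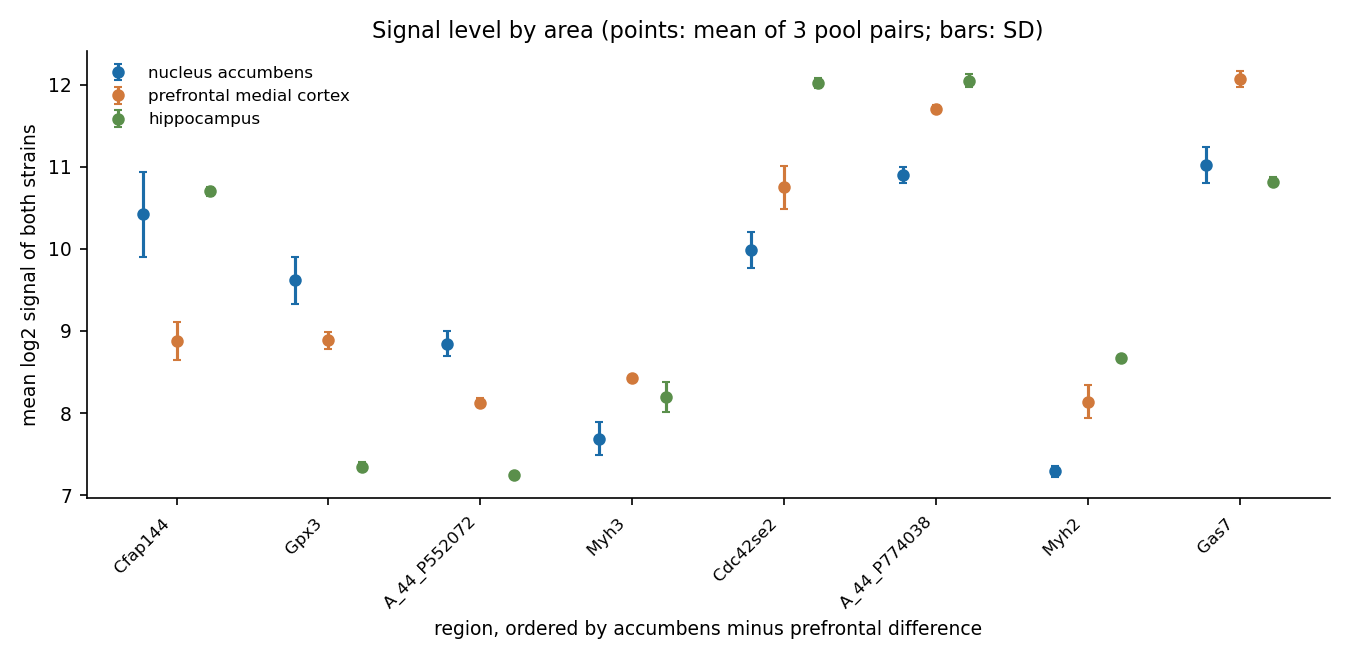
Mean log2 signal of both strains (vertical axis, mean of 3 pool pairs with SD bars) by area for 8 regions with large level differences between the nucleus accumbens and the prefrontal medial cortex. The first 3 are higher and the last 5 lower in the accumbens, and the hippocampus, scanned in another session, is shown without a test. None of the 8 passed the level test with arrays only centred on their medians.

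Probe composition was another measure that the choice did not use. The GC content of the 13 called probes had a median of 41.7% and ranged from 30.0% to 66.7%, against a median of 45% for the other core regions and 45% for the flanks. Of 12 places where probes of opposite strands overlap, 2 involved a called region, Mief2 and A_44_P792384.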

How the data were processed

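Per the file headers, the deposited intensities of each spot (its mean signal and the local background's median) come from Agilent Feature Extraction and are neither background-corrected nor dye-normalized. The deposited value table, used as an alternative, holds 1 log2 ratio per probe and array. Its sign is WHP over WLP, found by comparison with the scanner's ratios, and its normalization is not given in the sources used here. RNA was labelled with a two-colour low-input kit, per the labels.

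Signals were background-corrected (normexp, offset 50) and loess-normalized within arrays with limma 3.58.1 in R 4.3.3, cleared of control and non-uniform spots, and averaged by probe, by region (same-strand probes sharing at least 1 base, spans of at most 1000 bases) and by pool pair. The fit (lmFit, eBayes) had 1 coefficient per area over 9 pool pairs. The areas share 1 variance per region (degrees of freedom: 6 residual, 2.46 prior), with two-sided tests and Benjamini-Hochberg adjustment over all detected regions. The labels call the pool pairs biological replicates. Levels were quantile-scaled between arrays. In data simulated for this fit, the mean of 3 areas recovered 94% of 100 shifts of 0.5 and the nucleus accumbens 72%. The simulation had independent normal noise and the same shift in every pool pair, without the faults of these arrays. Every called ratio but that of Trim16 was smaller than 0.5, so these shares do not give the power for the called regions. Alternatives are in the closing section.

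Of 322 probes, 200 were named through RefSeq's gene table (GRCr8, names only) or the file's symbol. Named regions are those called, the largest of 1 sign in 9 of 9 pairs (up to 10 a direction), other probes of those genes, neighbours of the bounds, the extremes of the area and level tests, and up to 3 members a list. Rnf187, the second Gemin5 probe and the neighbours Mfap4, Natd1 and Iba57 were named after their values were seen. The members and lists were chosen with earlier results of these data known. A gene that the rule named is not reported here.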

Additional observations from a re-analysis of the deposited data

Results flagged for a closer look

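In 10 of 142 sets of 6 arrays (7.04%), 1 array stood apart from the other 5 by Dixon's criterion at the 95% level. With independent values chance alone meets it in about 1 of 20. Here the 6 arrays are dye-swapped repeats of pool pairs and the sets share arrays, so that rate is no yardstick. Of the 10 sets, 5 came from the accumbens pair 3 array with WHP in Cy3, 4 from the prefrontal pair 1 array with WHP in Cy3 and 1 from prefrontal pair 3.

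On the accumbens pair 3 array, Cdc42se2 read 0.509 (others at most 0.108), A_44_P711001 read -0.0638 (others -0.737 to -0.525), Trpv2 read 0.442 (others -0.534 to -0.217), the Tvp23b probe A_44_P335247 read 1.16 (others at most 0.229) and the Ncor1 probe A_44_P713311 read 0.478 (others at most 0.123). This array and its dye swap correlated at 0.047 over the array.

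On the prefrontal pair 1 array, A_44_P711001 read -0.166 (others -0.706 to -0.536), the called Tvp23b probe read -0.202 (others 0.386 to 0.594), Usp22 read -5.38 (others -0.365 to 0.200) and Rnf112 read -5.21 (others -0.348 to 0.133). The last pair are the spots with the outlying local background. On the prefrontal pair 3 array with WHP in Cy5, Trpv2 read -0.506 (others -0.149 to -0.013).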

How the results depend on the processing

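Since the stretch was chosen on the strain ratio, its calls under other settings describe the processing. Over the 25 other settings of the mean, A_44_P711001 and A_44_P792384 were called in 25, A_44_P792195 and Mief2 in 23, A_43_P19939 in 22, Tvp23b in 21, Alkbh5 in 20, Lrrc75a in 19, Pigl in 18, Trpv2 in 15 and Mmgt2 and A_44_P451717 in 14. Trim16's low probe was called in the 24 that tested it. Among these settings is a scaling of mean signals between arrays. It leaves ratios unchanged, so its calls equal the main ones by construction. No area difference was called in 25 settings.

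Against 13 calls in the mean (array 2.78%), the scanner's processed signals gave 7 (array 1.62%). Arrays with WHP in Cy5 alone gave 23 (array 5.84%), of which 11 were shared. Arrays with WHP in Cy3 alone gave 18 (array 4.27%), of which 8 were shared. Leaving out 1 pool pair gave 5 to 16 (array 1.07% to 5.41%). In the nucleus accumbens (1 call) the strict detection filter, arrays with WHP in Cy3 alone and each area fitted alone gave 0, arrays with WHP in Cy5 alone gave 2, and leaving out 1 pool pair 0 to 2. In the prefrontal medial cortex (0) processed signals and no background subtraction gave 2, the deposited value table and Cy5 alone 1, replaced local backgrounds 1 and omission of the pair 1 Cy3 array 3. In the hippocampus (0) processed signals, no background subtraction, trend and robust variances, replaced local backgrounds and omission of that array or of the pair 3 Cy5 array each gave 1, and leaving out 1 pool pair 0 to 1. With arrays of WHP in Cy3 alone the median absolute ratio was 0.0878 in the core and 0.0587 in the flanks. Levels centred on array medians gave 1 call against 94. The cause of these changes was not tested, and the last 2 array choices and the replaced backgrounds were chosen after seeing the data.

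Accumbens and prefrontal pairs of 1 number share a slide, and their deviations correlated at 0.17, 0.062 and -0.16. Over all pairs of areas the range was -0.38 to 0.17. With few pool pairs per area, some of whose arrays repeated poorly, these correlations cannot decide whether pools were paired by number beyond the slide. With slide as a random block the same 13 regions were called (array 2.36%). With the replicate block, 8 regions were called in the mean (array 1.7%). Of these, 6 were among the 13 and 2 were gained, the Ncor1 probes A_44_P1016217 and A_44_P1016222 (limma's adjusted p 0.0351 and 0.0312). This block left 0 calls in the nucleus accumbens and 94 in level.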
